A study of Mus musculus with 2 samples.

Results

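The nuclear genes for oxidative phosphorylation were taken from the table as the protein-coding transcripts whose gene symbol begins with Nduf followed by a, b, c, s or v, with Uqcr, with Cox4 to Cox8 or with Atp5, or is Sdha, Sdhb, Sdhc, Sdhd, Cyc1 or Cycs. The rule used names only and no measured value. It found 199 transcripts of 95 symbols among 49490 protein-coding transcripts with a row in the table, and since Atp5o has 2 gene records in the annotation, 96 of 21587 protein-coding gene records. They were measured in wild-type mouse embryonic stem cells (line DTCM23/49 XY), freed of feeder cells and grown on gelatin with serum and leukemia inhibitory factor, which received 200 µM 4-thiouridine (4sU) for 10 min. 4sU takes the place of uridine in RNA made during that time, and RNA carrying it was biotinylated and bound to streptavidin beads. The bound RNA made 1 library, called labeled here, and the RNA left in the supernatant made the other, called unlabeled. Both are of replicate 1, from cells that received 4sU, so there is no untreated control, no difference below has a replicate check, and no test was made.

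Oxidative phosphorylation passes electrons from NADH and succinate through complexes I and II, ubiquinone, complex III, cytochrome c and complex IV to oxygen, and the proton gradient built on the way drives ATP synthase. Most subunits are encoded in the nucleus, translated in the cytosol and imported, and a small set of membrane subunits is made inside the mitochondrion from its own DNA. Complexes I, III and IV and ATP synthase have a catalytic core kept from bacteria and small added subunits, called supernumerary. Several subunits exist as paralogs used in heart and muscle, testis or lung. The 13 mitochondrially encoded subunits had no row in the table and were not analysed here.

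The transcription factors best known for binding the promoters of these genes are NRF1, the ETS factor GABP, YY1 and the estrogen-related receptors. RefSeq windows on GRCm38.p6 that ran from 250 bases before to 50 bases after the annotated start matched 75 of the 95 symbols, with 80 windows in all. Letters were searched on both strands, and matches of different motifs did not overlap in the members' windows. The NRF1 palindrome CGCATGCG was in 15.0% of the 80 windows and in 1.87% of all 32851 windows. The ETS letters CCGGAAG were in 22.5% against 8.86%, the YY1 letters AAGATGGC in 12.5% against 2.75%, and the receptor letters AAGGTCA in 10.0% against 4.72%. Of the 10 YY1 matches, 9 began 10 to 38 bases after the start. A match is a description of the letters and not a binding site. Stretches before the start of 4 genes are shown because they hold the palindrome in a mobile carrier (Cycs, cytochrome c), a complex IV subunit (Cox6a1) and a complex I subunit (Ndufa11), and the receptor letters in a gene for the ATP synthase c-ring (Atp5g3). They are written 5′ to 3′ on the strand of the gene, leave out bases in GENCODE M21 exons, and have the matches in capitals.
Cycs, chr6:50566570-50566642, minus strand: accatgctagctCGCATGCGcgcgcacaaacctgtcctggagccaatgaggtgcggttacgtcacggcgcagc
Cox6a1, chr5:115348982-115349129, minus strand: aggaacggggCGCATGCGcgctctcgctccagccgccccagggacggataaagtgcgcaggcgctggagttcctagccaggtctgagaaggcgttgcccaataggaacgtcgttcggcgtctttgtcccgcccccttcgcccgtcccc
Ndufa11, chr17:56717686-56717761, plus strand: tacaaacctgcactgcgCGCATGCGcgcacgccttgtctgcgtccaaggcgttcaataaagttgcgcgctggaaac
Atp5g3, chr2:73911327-73911476, minus strand: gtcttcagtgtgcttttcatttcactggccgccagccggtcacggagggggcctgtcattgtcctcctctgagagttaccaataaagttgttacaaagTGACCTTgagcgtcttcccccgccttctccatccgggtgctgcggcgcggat
The palindrome began 61 bases before the start of Cycs, 161 before that of Cox6a1 and 59 before that of Ndufa11, and the receptor letters began 52 bases before the start of Atp5g3. Cox6a1 also held the ETS letters, which began 16 bases before its start, in the exon bases left out above. These 4 genes were not alike in the libraries: their exon values, described next, were 93.2 labeled and 115 unlabeled for Cycs, 509 and 186 for Cox6a1, 23.4 and 4.59 for Ndufa11, and 1438 and 786 for Atp5g3.

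Values are given as deposited: a relative abundance, normalized for length, whose total over all exons and introns of a library is 10 times that of TPM, so that 10 units equal 1 TPM. The gene value is the sum over the exons of its protein-coding transcripts. A gene was compared where the mean of its values in the libraries was above 10 and both were above 0, which held for 91 of the 96 gene records and for 10336 protein-coding genes in all. The labeled value is relative to the labeled library, so a ratio compares a gene with the rest of each library and is not an amount per cell, and fewer cells with a transcript and less transcript per cell cannot be told apart. No read counts are given, and the depth behind a value is therefore unknown. All 8 pluripotency markers were present, with a median level of 695.8, among them Nanog at 1099 labeled and 2416 unlabeled. Of 12 markers of feeder fibroblasts, primitive endoderm and trophoblast, 1 passed the filter (Thy1, 6.03 and 14.4), and Col3a1, Postn, Gata6, Sox17 and Elf5 were at 0 in both libraries.

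Exons of the 199 coding transcripts made up a larger part of labeled than of unlabeled RNA. They were 0.636% of all exon value in the labeled library and 0.324% in the unlabeled one. Other transcripts of these genes are not in these shares. The coding ones held 46.6% of the genes' exon value in the labeled library and 35.2% in the unlabeled one. The labeled value was higher than the unlabeled value for 75 of 91 genes, and at least 2-fold higher for 53, or 58.2%, where 11.5% of all tested coding genes were. Of the tested members 0 were at a ratio of 0.5 or under, where 24.7% of all tested genes were; Cox4i2 and Ndufa4l2, which missed the filter, had ratios of 0.109 and 0.224. The median log2 ratio was 1.15 (quartiles 0.40 and 1.74) for the members and -0.40 (quartiles -0.99 and 0.30) for all genes. The members ranged from -0.87 for Ndufaf1, a complex I assembly factor, to 4.76 for Cox7a1, the heart and muscle isoform of a complex IV subunit. The ratio of Cox7a1 rests on a low unlabeled value of 2.16, and the next highest was Ndufa2 at 3.13. They were also more abundant than other genes, with a median level of 230.3 against 75.9, and shorter, with a median length of the most expressed transcript of 659 against 2300 bases (4 against 8 exons).

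**Figure D1:**
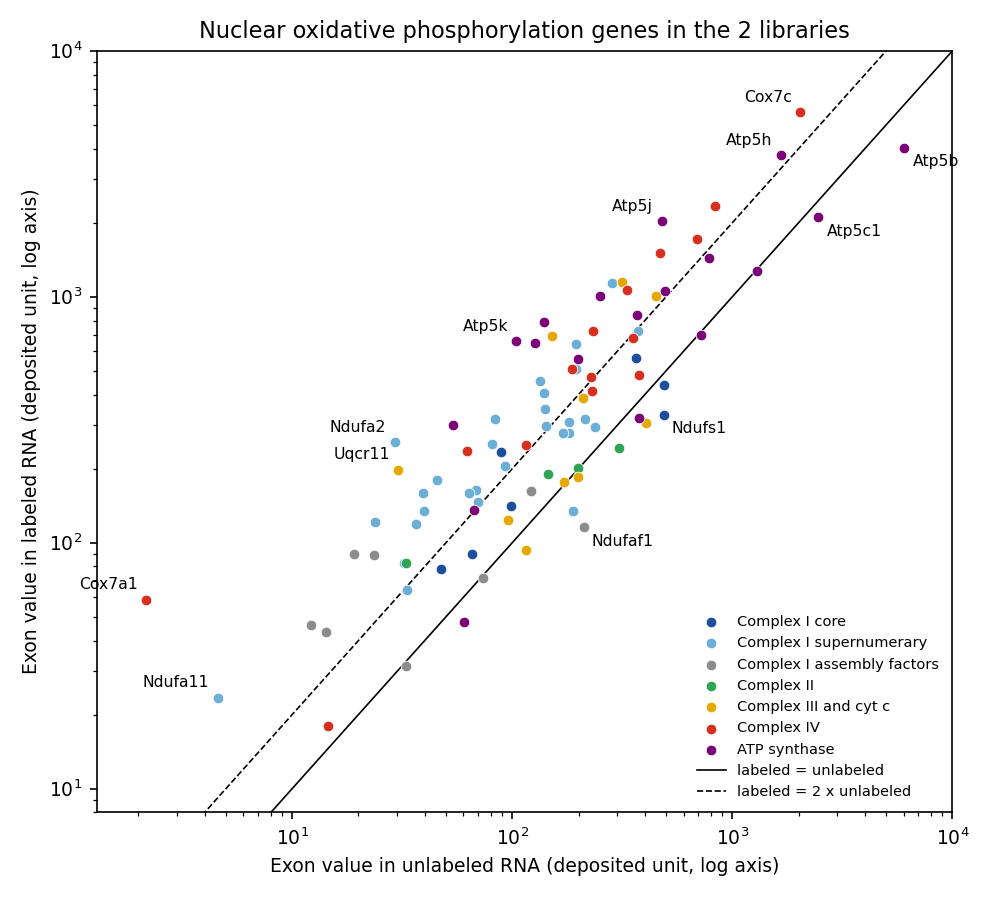
Exon value in the labeled library (vertical log axis) against that in the unlabeled library (horizontal log axis), in the deposited unit, for the 91 genes tested, 1 point per gene record, colored by complex. The solid line marks equal values and the dashed line a labeled value of 2 times the unlabeled one; 53 points lie on or above the dashed line, and the most abundant member, Atp5b, lies under the solid line with Atp5c1.

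Complex I takes electrons from NADH. Its 7 nuclear core subunits had a median log2 ratio of 0.51, and 1 of 7 reached 2-fold. Ndufv1, the FMN-bearing subunit that oxidizes NADH, had 235 labeled and 88.9 unlabeled, a log2 ratio of 1.40. Ndufv2, its iron-sulfur neighbour and the most abundant core gene, had 566 and 366. Ndufs1, the large iron-sulfur subunit of the peripheral arm, stood the other way, with 331 and 487, a log2 ratio of -0.56. Ndufs7, an iron-sulfur subunit at the ubiquinone site, had 141 and 98.8. Ndufs3 (90.3 and 65.5) and Ndufs8 (78.2 and 47.6), the least abundant core genes, were both higher in the labeled library.

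The 29 supernumerary genes of complex I had a median log2 ratio of 1.35; 21 reached 2-fold and 28 were above 1. The highest ratio was that of Ndufa2, with 257 labeled and 29.2 unlabeled, a log2 ratio of 3.13. Ndufb5, the most abundant, had 1132 and 283. Ndufb7 had 121 and 23.7, Ndufb2 had 159.6 and 39.4, and Ndufa5 had 180.2 and 45.4, with log2 ratios of 2.35, 2.02 and 1.99. Ndufab1, the mitochondrial acyl carrier protein that also serves fatty acid synthesis, had 725 and 373. The other supernumerary genes at 2-fold or more had log2 ratios from 1.06 to 1.94, and they were Ndufa1, Ndufa3, Ndufa6, Ndufa7, Ndufa13, Ndufb3, Ndufb4, Ndufb6, Ndufb8, Ndufb9, Ndufb10, Ndufb11, Ndufs5, Ndufs6 and Ndufv3. Among them Ndufs5 had 644 and 196 and Ndufb6 had 319 and 83.1. The only supernumerary gene with less labeled than unlabeled value was Ndufa10, with 134 and 189, whose most expressed transcript of 2020 bases was the longest of the group. The 8 assembly factors that the name pattern holds, which help build complex I and are not part of it, ranged from -0.87 for Ndufaf1 (115 and 211) to 2.24 for Ndufaf8 (90.03 and 19.1), with Ndufaf3 at 89.1 and 23.6, and 4 of 8 reached 2-fold.

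Complex II, succinate dehydrogenase, is the one complex whose subunits are all nuclear, and it also works in the citric acid cycle. Its genes lay close to equality, with a median log2 ratio of 0.20. Sdha, the flavoprotein that oxidizes succinate, had 201 labeled and 198 unlabeled. Sdhb, the iron-sulfur subunit, was the one that reached 2-fold, with 82.4 and 32.8. The membrane anchors Sdhc and Sdhd had 242 and 304, and 189.8 and 145.

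In complex III with cytochrome c, the supernumerary genes had higher ratios than the others. Cyc1, which is cytochrome c1, had 176 labeled and 172 unlabeled. The soluble carrier Cycs had 93.2 and 115, the core proteins Uqcrc1 and Uqcrc2 had 306 and 405, and 185 and 199, and the Rieske iron-sulfur protein Uqcrfs1 had 123 and 95.8. None of these reached 2-fold in either direction. Of the 5 small supernumerary genes, 4 reached 2-fold: Uqcr11 had 198 and 30.3 (log2 ratio 2.71), Uqcrq had 694 and 151, Uqcr10 had 1149 and 317, and Uqcrh had 1005 and 451. Uqcrb, the other one, had 386 and 210.5.

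Complex IV, cytochrome c oxidase, has its catalytic core encoded in the mitochondrion, and its nuclear subunits surround it. Of its 20 genes, 15 were tested; these were higher in the labeled library, 11 of them at least 2-fold, with a median log2 ratio of 1.45. The filter had a part in this count, since Cox7a1 passed it through its labeled value and Cox4i2 and Ndufa4l2, which were lower in the labeled library, missed it. Cox7c was the most abundant, with 5618 labeled and 2037 unlabeled, and Ndufa4, named for complex I but part of complex IV, had 2327 and 830. Cox4i1 had 1709 and 688, while its lung isoform Cox4i2 had 1.93 and 17.7. Cox6c had 1503 and 468, Cox5b had 1065 and 331, and Cox5a had 413 and 229. The stem cells held the common isoform of most pairs: Cox6a1 had 509 and 186 where the heart and muscle form Cox6a2 had 0.68 and 0, Cox8a had 480 and 376 where Cox8b and Cox8c were at 0 in both libraries, Cox7b had 724 and 233 where the testis form Cox7b2 had 18.04 and 14.6, and Ndufa4l2 had 1.18 and 5.27. Cox6b2, known as the testis form, was the exception. Summed over 7 coding transcripts it had 679.95 and 355, above the common form Cox6b1 with 249 and 116 in 1 coding transcript. Each of the 7 was lower than Cox6b1, at between 74.2 and 111 in the labeled library. Transcripts not called coding are left out of both sums. Cox7a1 had 58.5 and 2.16, the widest gap of all members, at a level far under that of Cox7a2 (237 and 61.97) and of Cox7a2l, a supercomplex assembly factor (472 and 228).

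ATP synthase joins a catalytic head, F1, to a rotating c-ring in the membrane, with a stalk at the side. The F1 genes differed from the rest. Atp5b, the catalytic beta subunit, was the most abundant member of all, with 4040.1 labeled and 6034 unlabeled, a log2 ratio of -0.58. The alpha subunit Atp5a1 had 1274 and 1295, the gamma subunit Atp5c1 had 2105 and 2451, and the delta subunit Atp5d had 321 and 378. Only Atp5e, the epsilon subunit, whose transcript of 421 bases is the shortest of F1, was higher in the labeled library, with 299.7 and 53.5. The median log2 ratio of the 5 F1 genes was -0.22 and that of the 13 other gene records 1.20, of which 10 reached 2-fold. The small membrane subunits Atp5k (657 and 104), Atp5mpl (787 and 139.9) and Atp5j2 (647 and 127) had log2 ratios of 2.66, 2.49 and 2.35. In the stalk, Atp5h had 3751 and 1655 and Atp5j had 2023 and 477, but Atp5f1 had 695 and 722.

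The c-ring is built from 1 mature protein that 3 genes encode with different import sequences. Atp5g3 was the most abundant, with 1438 labeled and 786 unlabeled, followed by Atp5g1 with 1059 and 493 and Atp5g2 with 557 and 199.8. Atp5g1 has a near-identical pseudogene copy with values of 582 and 256 and Atp5g2 has a pair of them with 465 and 174 together, and Atp5g3 has none. With the copies added, Atp5g1 was at 1640.4 and 748 and Atp5g2 at 1023 and 374, so the order of Atp5g3 and Atp5g1 in the labeled library depends on how reads were split. The log2 ratios without copies were 0.87, 1.10 and 1.48 in the order named. Without replicates it cannot be said whether the 3 ratios differ.

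**Figure D2:**
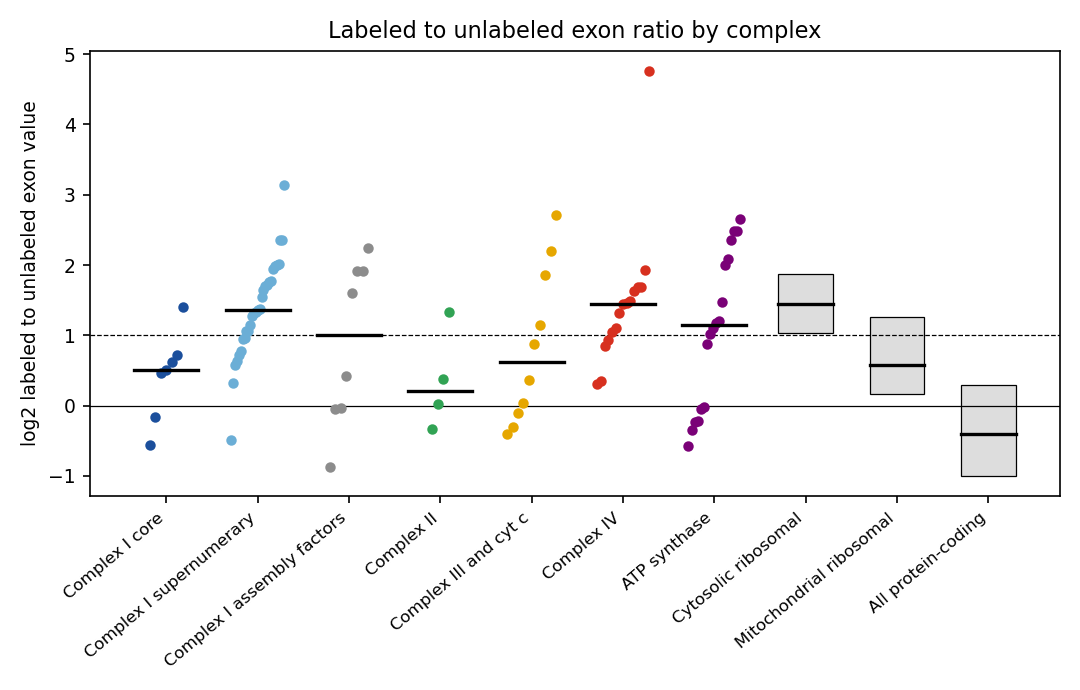
Log2 ratio of labeled to unlabeled exon value (vertical axis). Each point is a tested gene of the complex named on the horizontal axis and the bar is the median of the group; gray boxes run from the lower to the upper quartile of 83 cytosolic and 76 mitochondrial ribosomal protein genes and of all 10336 protein-coding genes tested, with the median as a bar. All 15 points of complex IV, which are the genes that passed the filter, lie above the solid line of equal values, and the medians of complex IV and of the cytosolic ribosomal proteins are both at 1.45.

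Length moved with the ratio, both among the members and among other genes. Over the 91 members, Pearson's r between the log2 length of the most expressed transcript and the log2 ratio was -0.61 (Spearman's rho -0.57), and over 10245 other coding genes it was -0.32 (rho -0.35). These are descriptions across genes, which share the 2 libraries. The 18 members of at most 500 bases had a median log2 ratio of 1.89, where 465 other genes of that length had 0.04. Between 500 and 750 bases, 38 members had 1.31 and other genes -0.01. From 750 to 1000 bases, 10 members had 0.83 and other genes 0.23. Between 1000 and 1500 bases the medians were 0.82 for 14 members and 0.17 for other genes. Between 1500 and 2000 bases they were -0.08 for 6 members and -0.18, and above 2000 bases -0.31 for 5 members and -0.68. Of the 66 members of at most 1000 bases, 46 (69.7%) reached 2-fold, where 26.3% of all genes of that length did. Of the 25 longer ones, 7 did, where 7.85% of all longer genes did. These 7 were all among the 14 between 1000 and 1500 bases. Above 1500 bases 0 of 6 members up to 2000 bases and 0 of 5 longer ones reached 2-fold, where 10.7% and 4.69% of other genes did. The share of uridines, the base that 4sU replaces, had a median of 24.0% in the members and 24.3% in all genes, and among the members its r with the log2 ratio was -0.31 (rho -0.29). For unspliced length r was -0.42 (rho -0.44). The part of length or base content in the ratios was not tested.

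**Figure D3:**
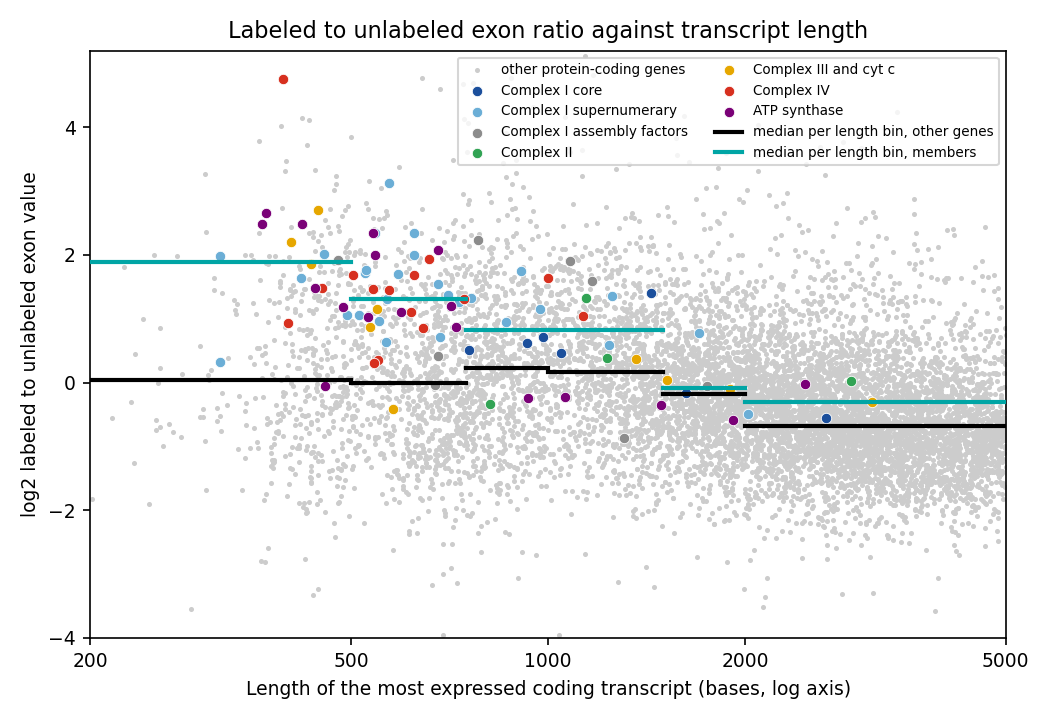
Log2 ratio of labeled to unlabeled exon value (vertical axis) against the length of the most expressed coding transcript in bases (horizontal log axis, ending at 5000). Colored points are members by complex and gray points other coding genes, of which 1343 lie outside the axes. The horizontal lines are medians per length bin (teal for members, black for other genes, the last over all genes above 2000 bases). The lines lie far apart up to 750 bases, at 1.89 against 0.04 and at 1.31 against -0.01. They are close between 1500 and 2000 bases, at -0.08 against -0.18, and above 2000 bases stand at -0.31 against -0.68.

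The introns of the members had nearly the same median enrichment in labeled RNA as those of all coding transcripts. A transcript was included where the mean of its exon values was above 1 and all 4 of its exon and intron values were above 0, which held for 190 of the 199 member transcripts (90 genes) and for 31386 coding transcripts in all; of the other 9, 3 were under the minimum and 6 had a value of 0. The median log2 ratio of labeled to unlabeled intron value was 2.01 (quartiles 1.46 and 2.60) for the members and 1.99 (quartiles 1.50 and 2.45) for all transcripts. For the exons of the same transcripts it was 1.11 and -0.40. Intron value was higher in the labeled library for 182 of the 190. Among transcripts of at most 1000 bases, the introns of 137 members had a median of 1.98 and those of 7904 others also 1.98, and the exons had 1.23 and -0.16. By complex, the intron medians were 1.31 for the complex I core, 2.21 for its supernumerary subunits, 1.96 for complex IV, 1.91 for ATP synthase and 2.67 for complex III with cytochrome c. The transcripts of cytosolic ribosomal proteins, by comparison, had 3.08 for introns and 1.47 for exons.

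In the study's model the ratio of intron to exon value within a library stands for the unspliced part of a transcript. The ratio needs no scaling between the libraries. Isoforms of a gene could have close intron values and unlike exon values, so it can pass 1 and is not a measured unspliced share. An Atp5g2 isoform with labeled exon and intron values of 3.38 and 74.8 was at 22.1. For the members the ratio was low in both libraries. The median was 0.114 (quartiles 0.0510 and 0.225) in labeled RNA and 0.0560 (quartiles 0.0216 and 0.126) in unlabeled RNA, where all transcripts had 0.570 and 0.111. The labeled ratio was 1.96 times the unlabeled one at the median, and 5.13 times for all transcripts. At 1 or more stood 12 members (6.32%), where 28.2% of all transcripts stood. These were isoforms of 6 genes, and 1 of the 12 was the most expressed of its gene; with 1 transcript per gene the share was 1.12%. Another 35 members (18.4%) had a labeled ratio that was under 1 and not above the unlabeled one, where 5.10% of all transcripts did. With a mean exon value of at least 100, the median labeled ratio was 0.0697 for 110 members and 0.231 for 6018 transcripts in all, and 16.4% against 2.09% had a labeled ratio under 1 and not above the unlabeled one. The median for mitochondrial ribosomal protein transcripts lay near that of all transcripts in unlabeled RNA, at 0.107, and between the others in labeled RNA, at 0.224; cytosolic ribosomal protein transcripts had 0.00818 and 0.0284.

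**Figure D4:**
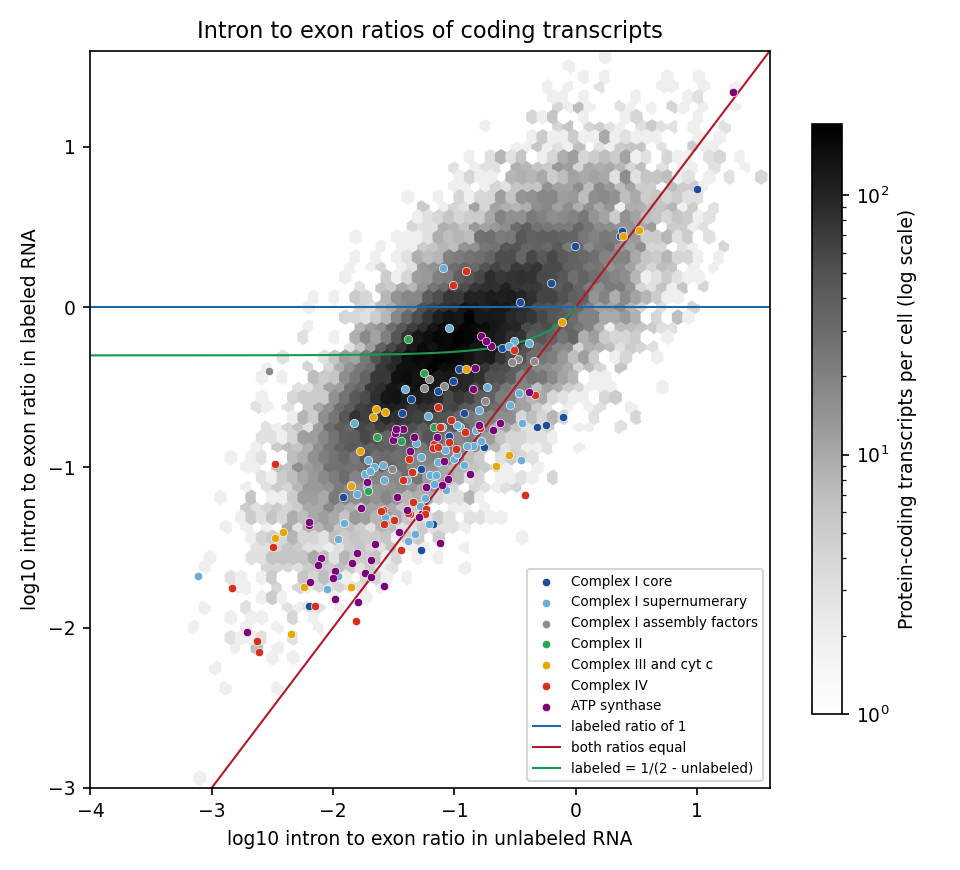
Log10 of the intron to exon ratio in labeled RNA (vertical axis) against that in unlabeled RNA (horizontal axis). Gray cells count the 31386 coding transcripts on a log scale, except 51 outside the axes, and colored points are the 190 member transcripts by complex; the lines mark a labeled ratio of 1, equal ratios, and the line above which the model has a single solution. Most members lie beneath the dense part of the cloud, 35 of them with a labeled ratio under 1 and not above the unlabeled one.

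Single genes show the range. Cox4i1 had exon values of 684 labeled and 251 unlabeled in its most expressed transcript beside intron values of 4.81 and 0.61, so that the ratio was 0.00703 in labeled and 0.00243 in unlabeled RNA. In Atp5b the ratios were 0.00936 and 0.00196, and in Cyc1 they were 0.00907 and 0.00447. Sdha, at a level close to that of Cyc1, had 0.147 and 0.0364. The c-ring genes differed more in introns than in exons. The most expressed transcript of Atp5g2 had intron values of 64.2 labeled and 11.5 unlabeled, and ratios of 0.307 and 0.144. That of Atp5g1 had 7.44 and 2.45, with ratios of 0.0152 and 0.0104, and that of Atp5g3 had 19.5 and 3.20, with 0.0270 and 0.00789. Cox7a1 had intron values of 3.91 and 0.82, and with its unlabeled exon value of 2.16 the ratio was higher in unlabeled RNA (0.38) than in labeled RNA (0.0668).

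Isoforms of a gene could fall on different sides. Of the 96 gene records, 48 had 2 or more coding transcripts and Atp5c1, Cox6b2 and Ndufs1 had 7, the most. The most expressed transcript was the same in both libraries for 40 of the 47 tested genes with several. In Ndufs1 the ratios of the 3 most expressed transcripts were between 0.299 and 0.411 in labeled RNA, and the other 4, whose labeled exon values were 22.4 and less, were at 1.08, 1.41, 2.40 and 5.44, and made up 4 of the 12 members at 1 or more. Intron values of the 7 were within 24.2 and 38.8 in the labeled library. In Ndufb5, 3 transcripts had a labeled ratio above the unlabeled one, such as 0.0357 against 0.0110 for the most expressed, and 2 had it below, such as 0.104 against 0.121. Isoforms overlap in most of their sequence and are not separate measurements.

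The study's model turns each pair of ratios into a processing and a degradation rate. It can hold only where the labeled ratio is above the unlabeled one and under 1, which left 143 members; 47 (24.7%) were incompatible with it, as were 33.3% of all transcripts. The order turned at higher levels, with 22.3% of members against 17.9% of all transcripts at a mean exon value above 10 and 16.4% against 3.95% at a mean of at least 100. An exact solution was found for 7 of the 143, single for 6 and double for 1, and the other 136 had none, so that their rates are those of the nearest point along the curve to which the study restricts the search. For all transcripts, 11971 of 20920 compatible ones had none. The nearest point missed the measured ratios by a median distance of 1.77 natural log units in the members. This distance was 2.31 in ATP synthase and 0.744 for all transcripts. With that limit, the median degradation half-life of the members was 49.2 min (quartiles 26.9 and 97.9), beside 19.0 min for all transcripts, 22.6 min for mitochondrial and 142.6 min for cytosolic ribosomal proteins. By complex it was 23.02 min for the complex I core, 51.3 min for the supernumerary genes, 31.1 min for complex II, 44.01 min for complex III with cytochrome c, 56.1 min for complex IV and 79.6 min for ATP synthase. The median processing half-life was 4.04 min (quartiles 3.21 and 5.28) beside 3.88 min for all transcripts. Read with the second library as total RNA, as its title calls it, the medians for degradation and processing were 11.8 min and 0.574 min in the members and 46.4 min and 2.88 min in all transcripts, so the order in degradation turned. It turned as well over transcripts with a single solution, at 11.3 min for the 6 members and 34.3 min for 7143 transcripts in all. A search over both rates at once, which can come nearer to the measured ratios, gave the members 3.78 min and 1.73 min.

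The 7 members with an exact solution were mostly minor transcripts. Those with a single one were a transcript each of Atp5c1, Atp5g2, Ndufab1, Ndufb8 and Sdhc, none of them the most expressed of its gene, and the only coding transcript of Atp5s, a factor B-like protein. Their degradation half-lives ran from 2.93 min in Ndufab1 to 58.1 min in Ndufb8. For Atp5s, with exon values of 47.4 and 60.3 and intron values of 29.3 and 11.1, it was 8.27 min and the processing half-life 5.14 min.

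Other lists of genes with mitochondrial functions had lower median exon ratios than the members. Of 13 citric acid cycle enzymes, 1 reached 2-fold (Suclg1, 86.4 labeled and 41.03 unlabeled) and 5 were at 0.5 or under, among them citrate synthase Cs with 256 and 628 and Ogdh, of the oxoglutarate dehydrogenase complex, with 232 and 698, and the median log2 ratio was -0.39. Of 13 regulators of these genes, 10 were tested, with a median of -0.43. Nrf1 had 794 and 394, while Gabpa, the DNA-binding subunit of GABP, had 561 and 1855 and Yy1 had 61.5 and 175. The coactivator gene Ppargc1a was close to absent, at 1.26 and 0. Of 44 assembly factors outside the name pattern, 39 were tested; 12 reached 2-fold and 2 were at 0.5 or under, with a median of 0.40. Mitochondrial ribosomal protein genes had a median of 0.58, with 25 of 76 at 2-fold, and cytosolic ones 1.45, with 66 of 83. The median length of the most expressed transcript in these lists was 2403 bases for the cycle, 2326 for the regulators, 1383 for the assembly factors, 1095 for mitochondrial and 679 for cytosolic ribosomal proteins.

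Some members share sequence with other genes, so that the authors' counting could split their reads. A copy with at least 95% identity over at least 50% of the most expressed transcript was found for 17 gene records, and 28 of the 32 copies were processed pseudogenes. Atp5l, a membrane subunit of ATP synthase, had 9 copies, and its own 1003 labeled and 251 unlabeled stood beside values of up to 1235 and 295 for single copies. Without the 17, 42 of 74 genes reached 2-fold and the median log2 ratio was 1.15, beside 11.4% and -0.40 for all genes. Exons of another gene overlapped 24 of the most expressed transcripts, over at least 50% of the length in 1 (the read-through record of Atp5o, which shares exons with Donson and with the main Atp5o record). Cox7a1, Uqcr11 and Cox6b2 had neither, and Ndufa2 shared 66 bases with Tmco6 on the opposite strand.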

How the data were processed

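RNA of mouse embryonic stem cells labeled with 4sU for 10 min was separated into labeled and unlabeled RNA, with 1 library each. Per the methods of the study, reads free of ribosomal RNA were aligned to exonic and intronic sequences with STAR and quantified with RSEM; the labels name STAR 2.5.0 and the builds mm10 and GRCm38. The authors deposited 1 relative abundance score per transcript for its exons and 1 for its introns, called TPM, but a column adds up to 10 times what TPM would. Minimums refer to the deposited scale. The second library is called total in its title and preexisting RNA in its description, and was read as unlabeled RNA, as in the study.

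Transcript types, symbols, lengths and positions came from GENCODE M21. Coding transcripts were summed per gene, ratios were taken without a pseudocount, and rates followed the study's equations, solved on 4000 grid points and tested on simulated rates. The 2-fold threshold stands in for a test. Named genes were the most abundant and the highest and lowest ratios of each complex (mean of at least 50), the paralog sets, complex II, the core of complex I (1 gene is not reported here), Cyc1, Cycs, and members at 2-fold or more; others, in the text as neighbours of these, were chosen after their values were seen. The members, lists and motifs were chosen with earlier results of these data known. Copies were sought with BLAST. Alternatives were other minimums, pseudocounts, 1 transcript per gene, all transcripts of a gene, subtraction of leakage and other ways to solve the model; leaving out near-identical copies and splitting at 1000 bases were chosen after seeing the data. Other replicates were not analysed here. With 1 library per pool no error could be given for a value.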

Additional observations from a re-analysis of the deposited data

How the results depend on the processing

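No paired analysis was possible because each pool has 1 library and no result comes from a test. Of 67 values under other settings, 52 stayed within the interval of the main median or share over members, or within 1.5 times the main count. That interval describes the spread across members, which share 2 libraries, and is not an error of measurement. Some settings could not move a value. With no minimum the same 190 transcripts were in the set, and a mean above 10 kept the same 143 compatible ones. The count of 52 is therefore no measure of robustness. The count at a ratio of 0.5 or under was 2 with no minimum (Cox4i2 and Ndufa4l2), 1 over all transcripts of a gene and 3 after subtraction of leakage, against 0. Transcripts over 1000 bases gave 7 genes at 2-fold and a median log2 ratio of 0.033, beside 7.85% and -0.50 for all genes of that length. The share at a labeled ratio of 1 or more was 3.26% at a mean above 10 and 1.12% with 1 transcript per gene, where the median ratios were 0.0899 labeled and 0.0361 unlabeled. The median half-lives for degradation and processing were 3.78 and 1.73 min with both rates free, 11.3 and 5.90 min over the 6 transcripts with a single solution (34.3 and 8.74 min for all 7143 such transcripts), and 11.8 and 0.574 min with the second library read as total RNA; for all transcripts the last reading gave 46.4 and 2.88 min. The count at 2-fold stayed between 41 of 72 and 53 of 93 under the other minimums, and was 47 after subtraction of leakage. Over all genes the share at 2-fold was 7.45% at a mean above 100, 19.2% with no minimum and 9.84% after subtraction of leakage. Depth is unknown, and low intron values such as those of Cox4i1 limit its ratios to an unknown degree.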

Other observations

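Transcripts of these genes that the annotation does not call protein-coding carried much of the exon value. Over the 96 gene records, the 199 coding transcripts held 46.6% of the exon value in the labeled library and 35.2% in the unlabeled one, where coding transcripts held 62.6% and 64.3% over all protein-coding genes. The rest lay mainly in 61 processed transcripts without a coding frame, at 29.2% and 36.4% (12.002% and 11.4% over all genes), and in 92 retained-intron transcripts, at 20.5% and 25.8% (19.05% and 17.4%). The 19 transcripts marked for nonsense-mediated decay held 3.71% and 2.59%. With all transcripts of a gene summed, 53 of 91 genes had a ratio of 2 or more, 1 was at 0.5 or under, and the median log2 ratio was 1.11. Over all genes summed in this way, 13.6% had a ratio of 2 or more and the median was -0.30.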
